A study of Mus musculus with 300 samples.

Results

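The solute carrier (Slc) genes expressed in early thymic progenitors (ETPs) and other cells sorted with them from the embryonic mouse thymus are described here. A gene was a member when its symbol starts with Slc and a digit and its deposited log2 value was at least 3.5 in 26 or more of 261 cells. Of 224 Slc genes in the matrix, 153 met this rule and 71 did not and were not described. The rule used expression levels over all cells, so how widely a member was expressed is a description. At the limit, Slc9a7 and Slc22a17 were inside with 26 cells each, and Slc37a2 and Slc39a4 were outside with 24 each.

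The study sequenced single cells of the ETP population of the embryonic day 15.5 thymus of 5x polychromILC mice, a strain with reporters at lymphoid regulator loci such as Id2, Gata3, Rora and Bcl11b. All cells share this strain and stage, and the labels name no treatment and no second group. Of 300 labelled cells, 261 are in the matrix: 67, 69, 64 and 61 cells of the mouse ids 1A, 1B, 2A and 2B, which are the replicates here. The labels do not say whether an id is 1 embryo or a pool of several, so p-values measure the spread between these ids. The matrix also holds 4 sets of cells, recognised by exact values that cells of a set share. Set 1 holds 64 cells of 1B and 1 of 1A, and set 3 holds 61 of 1A and 3 each of 1B and 2A. Sets 2 and 4 hold 35 and 26 cells of 2A beside 36 and 25 of 2B, with 2 of 1B and 5 of 1A. The sets thus do not separate 2A from 2B, whose coefficients may not be independent. The tests below are also given with sets rather than mice as replicates. Sets 2 and 4 draw on the same mice and the set fits hold no mouse term, so the sets are not independent units either.

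Solute carriers are membrane proteins that move nutrients, ions and metabolites across the plasma membrane or the membranes of organelles, driven by gradients or by exchange rather than by ATP hydrolysis. ETPs are the earliest thymic cells with T-lineage potential. They carry the stem cell factor receptor Kit and divide before commitment, which needs imported amino acids, sugars, nucleosides and phosphate. Members were grouped by family number: 35 mitochondrial carriers (family Slc25), 20 nucleotide sugar carriers and related proteins (Slc35), 19 metal, 18 amino acid, 18 ion, phosphate and pH, 13 organic solute and lipid, 10 sugar, 6 monocarboxylate, 6 vitamin, choline and haem, and 4 nucleoside carriers. The remaining 4 carry an Slc symbol without being carriers (Slc4a1ap, Slc7a6os and the adaptors Slc9a3r1 and Slc9a3r2), and were set apart after their values had been seen.

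Within each mouse, cells with more Kit than that mouse's median were called Kit-high and the others Kit-low. The cell-cycle level of a cell was the mean of 86 scaled S-phase and G2M-phase genes. Each member's Kit difference or cell-cycle slope was fitted in every mouse with the number of detected genes and the set of cells as covariates, and the 4 values were tested with limma over 10335 genes (Benjamini-Hochberg adjusted p under 0.05). In the rest of the text, higher, lower, rose and fell refer to this test.

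With these covariates, 6 members differed with Kit or the cell cycle. Slc22a3 and Slc35d3 were higher in Kit-high cells. Slc43a3 and Slc29a1 rose with the cell-cycle level, and Slc29a3 and Slc12a9 fell. The 300-base promoter windows of 5 of these genes (RefSeq, GRCm38.p6, spanning an annotated start) are shown because these are the genes that moved, in the same or in opposite directions; 119 of 153 members had a window, and Slc43a3 had none. Capitals mark exact matches on either strand to the NF-Y motif CCAAT, the TCF/LEF core TTTGAA, the E-box CACGTG, the GATA factor motif GATAAG or the Sp/KLF motif GGGCGG. A match is a description of letters only, and no motif contains another.

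Slc22a3, chr17:12507655-12507954, minus strand: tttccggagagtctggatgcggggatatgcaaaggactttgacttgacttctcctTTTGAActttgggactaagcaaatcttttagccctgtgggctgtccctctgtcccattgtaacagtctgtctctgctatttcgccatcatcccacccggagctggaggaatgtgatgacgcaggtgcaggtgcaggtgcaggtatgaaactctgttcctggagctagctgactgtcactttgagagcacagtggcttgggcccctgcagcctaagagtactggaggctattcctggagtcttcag
Slc35d3, chr10:19851410-19851709, minus strand: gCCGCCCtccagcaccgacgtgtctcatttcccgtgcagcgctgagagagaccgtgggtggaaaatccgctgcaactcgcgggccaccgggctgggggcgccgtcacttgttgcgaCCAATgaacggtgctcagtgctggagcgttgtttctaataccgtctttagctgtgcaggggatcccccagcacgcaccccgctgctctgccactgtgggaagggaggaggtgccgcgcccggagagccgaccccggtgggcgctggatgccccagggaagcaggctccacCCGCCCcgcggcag
Slc29a1, chr17:45599569-45599868, minus strand: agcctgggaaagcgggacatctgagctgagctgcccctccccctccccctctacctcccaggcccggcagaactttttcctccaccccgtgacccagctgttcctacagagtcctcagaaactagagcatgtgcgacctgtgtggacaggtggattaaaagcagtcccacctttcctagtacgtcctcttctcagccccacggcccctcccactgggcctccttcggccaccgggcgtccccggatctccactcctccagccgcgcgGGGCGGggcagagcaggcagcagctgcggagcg
Slc29a3, chr10:60752733-60753032, minus strand: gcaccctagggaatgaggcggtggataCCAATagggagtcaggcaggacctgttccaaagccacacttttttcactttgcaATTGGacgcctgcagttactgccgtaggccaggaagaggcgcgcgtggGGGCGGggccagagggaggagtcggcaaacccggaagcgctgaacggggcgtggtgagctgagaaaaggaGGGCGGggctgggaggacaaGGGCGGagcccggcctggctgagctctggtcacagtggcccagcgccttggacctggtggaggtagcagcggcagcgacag
Slc12a9, chr5:137333533-137333832, minus strand: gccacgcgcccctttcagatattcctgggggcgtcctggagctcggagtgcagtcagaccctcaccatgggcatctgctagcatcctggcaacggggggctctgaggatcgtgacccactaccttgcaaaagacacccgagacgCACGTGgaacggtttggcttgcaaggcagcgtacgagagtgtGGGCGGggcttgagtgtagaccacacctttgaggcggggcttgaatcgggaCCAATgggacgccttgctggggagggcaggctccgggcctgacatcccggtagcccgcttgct

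The windows of the 2 genes higher in Kit-high cells share no match: Slc22a3 has 1 match to TTTGAA, and Slc35d3 has 1 to CCAAT and 2 to GGGCGG. The family relatives Slc29a1 and Slc29a3, which moved in opposite directions with the cell cycle, have 1 and 3 matches to GGGCGG, and Slc29a3 also has 2 to CCAAT. Slc12a9 has 1 match each to the NF-Y motif, the E-box and the Sp/KLF motif. Over all 32851 windows of this length, 37.4% hold the NF-Y motif, 35.7% the Sp/KLF motif, 17.9% the TCF/LEF core, 7.44% the GATA motif and 7.15% the E-box. Over the 159 windows of members, these shares are 35.8, 74.8, 10.7, 5.03 and 15.1%, so the Sp/KLF motif in 4 of the 5 windows shown is near the share in members. Members passed an expression rule that was not applied to all windows, so the 2 sets of shares do not compare like genes. The E2F motif TTTGGCGC (0.514% of all windows) and its variant TTTCCCGC (1.07%) were also searched and have 0 matches in these 5 windows. For Slc29a1 8 windows are listed, and the one nearest the gene's annotated 5′ end is shown.

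Members ranged from broadly expressed carriers to ones seen in few cells. The share of cells at 3.5 or above ran from 9.96 to 100%, with a median of 34.1%, and 101 members were below 50%. The 9 members in at least 90% of cells were the mitochondrial phosphate carrier Slc25a3, the ADP/ATP carriers Slc25a4 and Slc25a5, the neutral amino acid carriers Slc38a1 and Slc38a2 with their relative Slc38a6, the choline transporter-like Slc44a2, Slc35a4 and the adaptor Slc9a3r1. These shares depend on transcript length and depth as well as on the gene, so they rank no carrier's output.

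**Figure D1:**
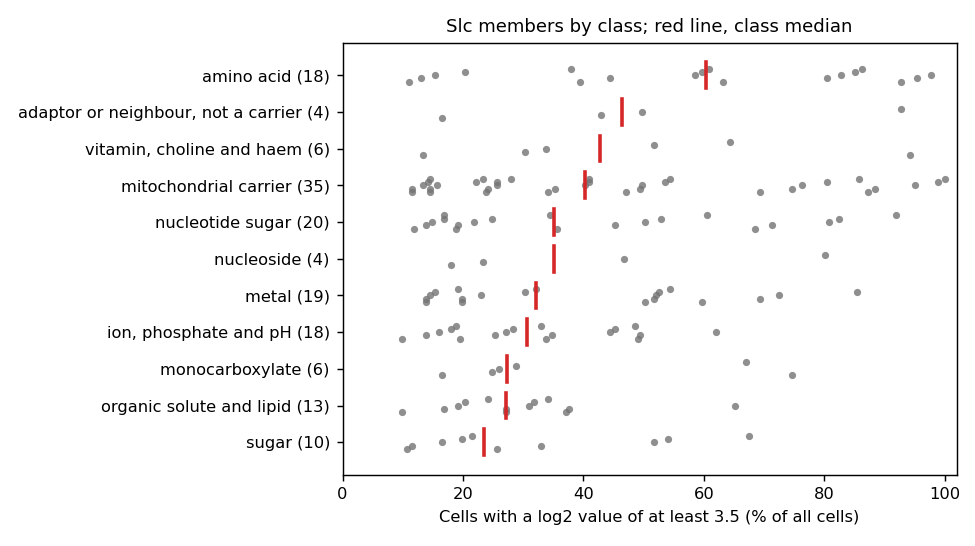
Share of the 261 cells with a deposited log2 value of at least 3.5 (x axis, %) for each of the 153 members (grey points) by class, with the number of members in brackets and the class median as a red line. Amino acid carriers have the highest class median, 60.3%, and sugar carriers the lowest, 23.6%, and every class of more than 6 members spans from under 15% to over 60% of cells.

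Among nutrient carriers of the plasma membrane, the glutamine carrier Slc1a5 was at the level in 85.1% of cells, the heavy chain Slc3a2 in 86.2%, its partners Slc7a5 (large neutral amino acids) and Slc7a6 in 58.6% and 82.8%, the arginine carrier Slc7a1 in 63.2% and Slc43a1 (LAT3) in 37.9%. The serine and alanine carrier Slc1a4 was at the level in 11.1%. Of the glucose carriers, Slc2a1 was at the level in 67.4% and Slc2a3 in 51.7%. Of the lactate and pyruvate carriers, Slc16a1 was at the level in 67% and Slc16a3 in 26.1%. The folate carrier Slc19a1 was at the level in 51.7%, the zinc importer Slc39a10 in 50.2%, the iron carrier Slc11a2 in 32.2%, the mitochondrial iron carrier Slc25a37 in 34.1% and the endosomal proton exchanger Slc9a9 in 49%. The listed carriers Slc11a1, Slc40a1, Slc12a2 and Slc46a3 were not members.

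Kit-high and Kit-low cells differ in more than Kit, and these values stand beside every Kit result. Median detected genes were 7828, 7690, 8275 and 8328.5 in Kit-high cells of 1A, 1B, 2A and 2B, against 6861.5, 7191, 7288 and 8071 in Kit-low cells. The mean cell-cycle level was 0.105 to 0.182 in Kit-high and -0.169 to -0.0892 in Kit-low cells, in units of scaled expression. Of the progenitor markers other than Kit, 9 of 13 had a higher mean in Kit-high cells of all 4 mice, and 10 of 14 dendritic markers a lower one. The summed log2 level of the dendritic list was 22.5 to 24 in Kit-high and 35.1 to 51.6 in Kit-low cells, of the NK/ILC list 16.7 to 24.5 and 21.3 to 45.7, of the macrophage list 12.7 to 17.4 and 15.2 to 22.1, of the T-lineage list 62.3 to 68.4 and 52.1 to 56.2, and of the mast and basophil list 9.38 to 14.6 and 9.38 to 11.1. For the erythroid and megakaryocyte list it was 8.22 to 13 and 7.19 to 13.6, and for the thymic stroma list 8.16 to 9.54 and 9.09 to 13.2. No measured marker of these lists was below 3.5 in every cell. Cells holding at least a share of 0.5 of the NK/ILC (25 cells), dendritic (32), macrophage (11), mast and basophil (11), erythroid and megakaryocyte (6) or thymic stroma (5) markers at 3.5 or above made up 11 of 129 Kit-high and 68 of 132 Kit-low cells. These 79 cells are called cells with other markers below, and results are given with and without them. Whenever cells are left out, the Kit classes are cut again at the median of each mouse's kept cells. A fit with the cell-cycle level as a further covariate is also given. The part that depth, the cell cycle and these cells have in the Kit differences was not tested beyond these fits.

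Slc22a3 (OCT3) and Slc35d3 were the members higher in Kit-high cells. Slc22a3, a carrier of organic cations such as monoamines, spans chromosome 17, 12418960 to 12507704 on the minus strand. Its mean deposited value was 6.48, 6.60, 6.5 and 6.85 in Kit-high cells of 1A, 1B, 2A and 2B, against 3.25, 3.16, 2.89 and 4.73 in Kit-low cells. All 4 Kit-high means lay above all 4 Kit-low means. Here and below such means are not corrected for detected genes, and the share of all genes without overlap is not given. Without the detected-gene covariate, 24% of all genes tested were higher in Kit-high cells. Slc22a3 was at 3.5 or above in 81.8, 85.3, 87.5 and 93.3% of Kit-high and 38.2, 40, 37.5 and 61.3% of Kit-low cells.

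Slc35d3, a nucleotide sugar carrier relative known for its role in platelet dense granules, spans chromosome 10, 19847916 to 19851459 on the minus strand. Its Kit-high means were 5.66, 5.58, 5.98 and 5.76 and its Kit-low means 2.80, 3.06, 2.40 and 3.88, again without overlap. It was at 3.5 or above in 75.8, 82.4, 87.5 and 80% of Kit-high cells, against 32.4, 45.7, 31.2 and 51.6% of Kit-low cells.

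With the covariates, the difference was 2.18 ± 0.29 log2 for Slc22a3 (SE, n = 4 mice, limma adjusted p = 0.00554) and 1.93 ± 0.33 for Slc35d3 (adjusted p = 0.0194), positive in 4 of 4 mice. The same fit gave 3.17 ± 0.23 for Kit itself. Of 153 members, 2 were thus higher and 0 lower in limma (12 and 5 at unadjusted p under 0.05), where 0.881% of all genes tested were higher and 0.145% lower. The median member differed by 0.09 and the median of all genes tested by 0.17.

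Without mouse 2A neither carrier passed (Slc22a3 2.06, adjusted p = 0.0976; Slc35d3 1.64, 0.167), and without 2B Slc35d3 did not (2.02, 0.0960). Slc35d3 also did not pass with values raised to 3.5 (1.04, 0.0563) or by limma without a trend (0.0587). With the cell-cycle level as a further covariate, Slc22a3 differed by 2.12 (limma adjusted p = 0.00964) and Slc35d3 by 1.92 (0.0263). Without the cells with other markers, the Kit classes were cut again at the median of the kept cells, so they are not the classes above. Slc22a3 then differed by 0.72 (limma adjusted p = 0.575), Slc35d3 by 0.86 (0.558) and Kit itself by 1.64. No member (0) was called in limma, with 9 higher and 7 lower at unadjusted p under 0.05. Over all genes tested that fit called 0.00968% higher (1 gene) and 0 lower, and 5.13% and 2.97% at unadjusted p under 0.05. The 1 gene was Kit (limma adjusted p = 0.0496), which defines the classes. No other gene passed, so the count of 0 members does not set members apart from other genes. Among cells that held none of these marker sets, Slc22a3 was at 3.5 or above in 81.9% and Slc35d3 in 79.1%. In NK/ILC-marked cells they were at the level in 2 and 3 of 25, and in dendritic-marked cells in 5 and 4 of 32. In macrophage-marked cells both were at the level in 2 of 11, and in thymic stroma-marked cells in 0 and 1 of 5. In erythroid- and megakaryocyte-marked cells both were at the level in 4 of 6. They parted in mast- and basophil-marked cells, where Slc22a3 was at the level in 9 of 11 and Slc35d3 in 1 of 11.

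Slc22a3 and Slc35d3 were found at 3.5 or above in the same cell in 43.3, 52.2, 48.4 and 60.7% of cells of 1A, 1B, 2A and 2B. The product of their shares was 32.1, 39.7, 37.1 and 50.5%, lower in each mouse. This is described without a test, and both shares contain the Kit-low cells with other markers. Both genes were named for being higher in Kit-high cells, so a joint share above the product was favoured in advance by that choice.

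The next 5 members by p did not pass. Slc26a11, a carrier of sulfate and other anions, differed by 1.29 (adjusted p = 0.0687), and its Kit-high means of 2.87, 3.19, 2.72 and 3.19 lay above its Kit-low means of 0.78, 2.38, 0.92 and 2.28. Slc12a9, a relative of the cation-chloride cotransporters, differed by -1.02 (0.118), with Kit-high means of 1.62, 0.89, 1.01 and 0.66 and overlapping Kit-low means of 2.08, 1.76, 1.52 and 2.49. The amino acid carrier Slc43a1 differed by 1.08 (0.139), the ATP carrier of the endoplasmic reticulum Slc35b1 by -0.97 (0.154) and Slc7a6 by 0.83 (0.157). For Slc43a1 and Slc7a6 the Kit-high means, 3.27 to 3.71 and 6.65 to 7.31, lay above the Kit-low means, 1.28 to 2.27 and 4.86 to 5.68. With sets rather than mice as replicates, Slc26a11 passed beside Slc22a3 and Slc35d3 (1.34, adjusted p = 0.0471). With Kit as a continuous measure, the slope of Slc26a11 was 0.26 per SD of Kit (limma adjusted p = 0.502). Those of Slc22a3 and Slc35d3 were 1.69 and 1.65.

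**Figure D2:**
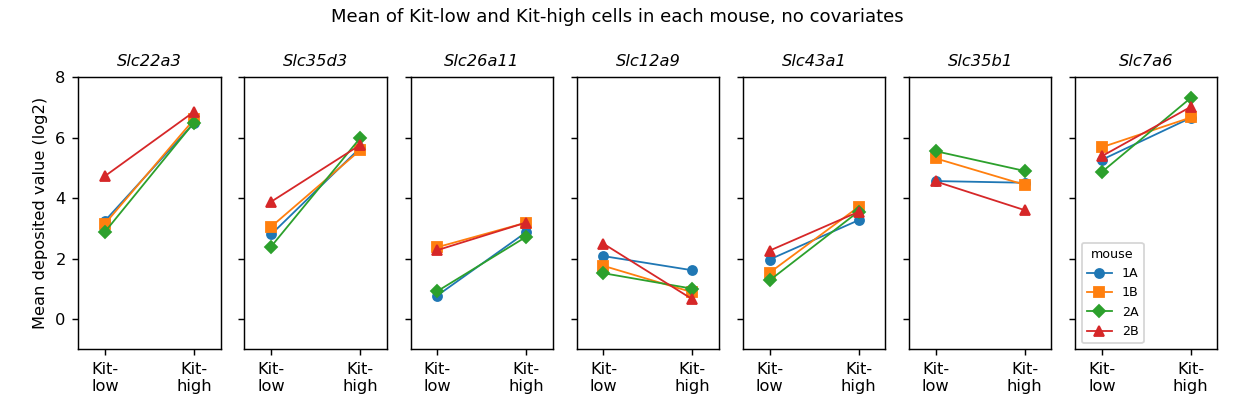
Mean deposited log2 value (y axis) of Kit-low and Kit-high cells in each of the 4 mice (lines, one symbol per mouse) for the 2 members called in the test, Slc22a3 and Slc35d3, and the 5 next by p, without covariates. Slc22a3 Kit-high means lie at 6.48 to 6.85 and Kit-low means at 2.89 to 4.73.

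Many more carriers were called without the number of detected genes as covariate. In that fit, 35 members were higher in Kit-high cells and 1, Slc12a9, lower, where 24% of all genes tested were higher and 1.33% lower. Among the 35 were Slc16a1 (1.51), Slc19a1 (1.82), Slc43a1 (1.67), Slc7a6 (1.53), Slc29a1 (1.19), Slc1a5 (1.12) and Slc25a3 (0.62). The median member then differed by 0.42 and the median of all genes by 0.48. Without both the covariate and the cells with other markers, a combination chosen after seeing the data, no member (0) was called in limma, with 14 higher and 5 lower at unadjusted p under 0.05, where 0.0290% of all genes tested were higher (3 genes) and 0 lower.

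By class, with the covariates, the median Kit difference was 0.30 for the 18 amino acid carriers (13 positive), 0.40 for the 6 monocarboxylate carriers (5 positive) and 0.04 for the 35 mitochondrial carriers (18 positive). It was -0.06 for the 19 metal carriers, -0.09 for the 10 sugar carriers and -0.09 for the 4 nucleoside carriers. Positive differences made up 54.2% of all members and 65.3% of all genes tested in the same fit. The amino acid, mitochondrial, metal, sugar, monocarboxylate and nucleoside classes held no member (0) past the threshold in limma. Of the 23 listed nutrient carriers, 0 passed for Kit with the covariates and 7 without the detected-gene covariate. Slc2a1 differed by -0.33, Slc2a3 by 0.15, Slc7a5 by 0.16, Slc3a2 by 0.39, Slc1a4 by -0.50, Slc38a1 by 0.41, Slc38a2 by 0.35, Slc16a3 by -0.29, Slc25a4 by -0.08, Slc25a37 by 0.17, Slc11a2 by -0.91, Slc39a10 by -0.12, Slc9a9 by -0.57 and Slc44a2 by 0.31, with adjusted p from 0.164 to 0.921.

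**Figure D3:**
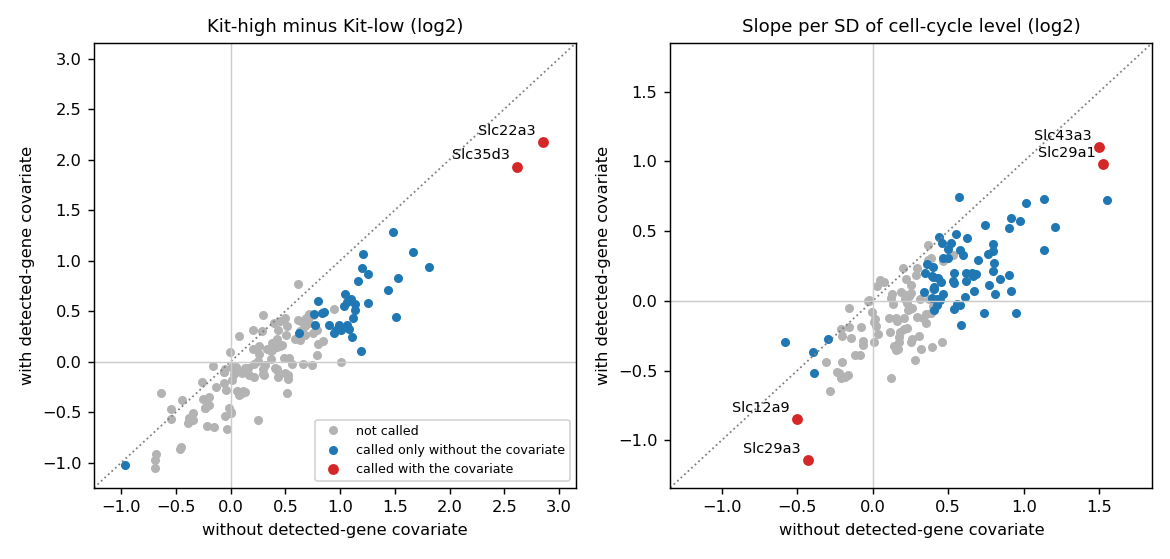
Each member's Kit difference (left) and cell-cycle slope (right, per SD of the cell-cycle level), in log2, fitted without (x axis) and with (y axis) the number of detected genes as covariate; the dotted line marks equal values. Red points pass with the covariate (2 for Kit, 4 for the cell cycle) and blue points only without it, and most members lie below the line.

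Enzymes and partners of nutrient use were read from a list of 35 genes, such as glycolytic and one-carbon enzymes. For Kit, 2 were higher and 0 lower: Myc, a driver of growth metabolism (1.16 ± 0.23, adjusted p = 0.0321), and Phgdh, the first enzyme of serine synthesis (0.97 ± 0.17, adjusted p = 0.0206). For the cell cycle, 11 rose and 0 fell. These included Psat1 of serine synthesis (1.04 ± 0.18, adjusted p = 0.00194) and the one-carbon enzymes Shmt1 (0.89 ± 0.21, adjusted p = 0.0188) and Mthfd2 (0.82 ± 0.23, adjusted p = 0.0418), per SD of the cell-cycle level, each with the same sign in 4 of 4 mice.

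With the cell-cycle level, 2 members rose and 2 fell, where 6.14% of all genes tested rose and 1.09% fell. At unadjusted p under 0.05 the counts were 12 and 12. The median member slope was 0.01 log2 per SD and that of all genes tested 0.10. The cell-cycle level itself moved with the number of detected genes, with a Pearson r across the cells of a mouse of 0.506 to 0.802, given as a description. In cells ranked by cycle level within a mouse and cut into 3 groups of 20 to 23 cells, median detected genes were 6068, 6949, 7288 and 7413 in the lowest group of 1A, 1B, 2A and 2B and 8363.5, 8071, 8379 and 8600 in the highest.

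Slc43a3 and Slc29a1, which carry purine nucleobases and nucleosides, rose with the cell-cycle level. Slc43a3 (chromosome 2, 84936579 to 84958509, plus strand) is counted in the amino acid class by its family number although it is known as a nucleobase carrier. Its mean was 2.37, 1.63, 3.66 and 2.31 in the lowest cycle group of 1A, 1B, 2A and 2B, and 6.49, 6.17, 5.83 and 5.39 in the highest, with no overlap. These group means are not corrected for detected genes, and the share of all genes without overlap is not given. Without the detected-gene covariate, 48.9% of all genes tested rose with the cell-cycle level. With the covariates the Slc43a3 slopes were 1.38, 1.75, 0.03 and 1.25, and their mean was 1.10 ± 0.27 (limma adjusted p = 0.0248).

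Slc29a1, the equilibrative nucleoside transporter ENT1, spans chromosome 17, 45585200 to 45599606 on the minus strand. Its mean was 3.43, 5.00, 3.98 and 6.12 in the lowest cycle group and 8.33, 7.15, 6.82 and 7.15 in the highest, again without overlap. With the covariates the slopes were 1.91, 0.71, 1.28 and 0.03, and their mean was 0.98 ± 0.26 (adjusted p = 0.0344). Mouse 2B thus gave nearly no slope for Slc29a1, and mouse 2A nearly none for Slc43a3.

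Slc29a3 and Slc12a9 fell. Slc29a3 (ENT3), a nucleoside carrier of lysosomes, spans chromosome 10, 60712072 to 60752794 on the minus strand. Its slopes were -1.90, -0.49, -0.83 and -1.35, with a mean of -1.14 ± 0.26 (limma adjusted p = 0.0138). Without the detected-gene covariate the mean slope was -0.43 (adjusted p = 0.0568), and the uncorrected means of the lowest (5.00, 4.02, 2.90 and 4.76) and highest cycle groups (4.22, 3.58, 3.66 and 3.59) overlapped.

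Slc12a9 (chromosome 5, 137314558 to 137333597, minus strand) had slopes of -1.13, -1.08, -0.56 and -0.62, with a mean of -0.85 ± 0.18 (limma adjusted p = 0.0102). Without the detected-gene covariate it was -0.50 (adjusted p = 0.00385). The means of its lowest cycle groups were 2.71, 2.09, 1.58 and 1.87 and of its highest 1.18, 1.23, 1.18 and 1.60, with a slight overlap.

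Markers of dendritic cells and macrophages moved with the cell-cycle level in the direction of Slc29a3 and Slc12a9: 6 of 12 tested dendritic and 2 of 5 tested macrophage markers fell and 0 rose. Slc29a3 was at 3.5 or above in 26 of 32 dendritic-marked and 10 of 11 macrophage-marked cells, against 46.7% of the 182 cells without other markers. For Slc12a9 this was 16 of 32 and 7 of 11, against 14.3%. In erythroid- and megakaryocyte-marked cells Slc29a3 was at the level in 4 of 6 and Slc12a9 in 3 of 6. In thymic stroma-marked cells the counts were 3 and 0 of 5, in NK/ILC-marked cells 4 and 1 of 25. In mast- and basophil-marked cells each was at the level in 1 of 11. The part these cells have in the slopes was not tested beyond the fits that leave them out. Without the cells with other markers, the slopes were -0.19 for Slc29a3 (adjusted p = 0.820), -0.28 for Slc12a9 (0.562), 0.84 for Slc43a3 (0.243) and 0.30 for Slc29a1 (0.518). No member (0) was then called in limma, with 9 rising and 5 falling at unadjusted p under 0.05, where 2.17% of all genes tested rose and 0.155% fell. Without both these cells and the detected-gene covariate, chosen after seeing the data, the Slc29a3 slope was 0.35 (0.336), and 21 members (13.7%) rose and 0 fell, where 12.6% of all genes tested rose and 0.164% fell.

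Each of these 4 calls was lost without at least 1 mouse, mostly with a similar slope over the remaining 3. Slc43a3 did not pass without 1A (1.01, adjusted p = 0.0598), 1B (0.88, 0.148) or 2B (1.05, 0.128), and Slc29a1 not without 1A (0.67, 0.139), 1B (1.07, 0.0842) or 2A (0.88, 0.152). Slc29a3 did not pass without 2B (-1.07, 0.0930) and Slc12a9 not without 1B (-0.77, 0.0765). Slc29a1 also did not pass with values raised to 3.5 (0.127), by partial Spearman correlation (0.107), by limma without a trend (0.0686) or with all genes tested (0.0656). By partial Spearman correlation Slc29a3 (0.158) and Slc12a9 (0.353) did not pass either. With sets rather than mice as replicates, Slc29a3 did not pass (-0.99, 0.0518), and Slc35a4 (0.61, 0.0419) and Slc22a17 (-0.53, 0.0429) did.

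**Figure D4:**
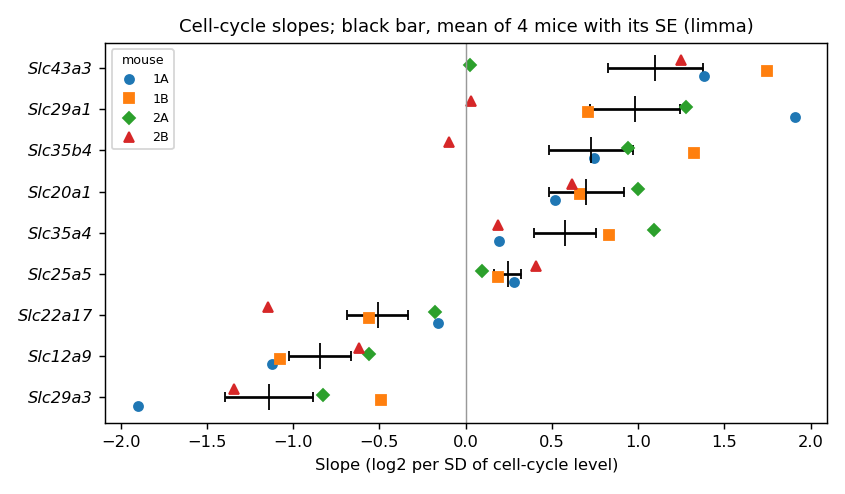
Cell-cycle slopes (x axis, log2 per SD of the cell-cycle level) of the 4 members called and the 5 next by p; symbols are the 4 mice, and the black mark and bar are their mean and its SE from limma. Slc29a1 is at 0.03 in mouse 2B and Slc43a3 at 0.03 in mouse 2A, while all mice lie below 0 for Slc29a3 and Slc12a9.

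The next 5 members by p did not pass. The phosphate importer Slc20a1 had a mean slope of 0.70 (adjusted p = 0.0720; slopes 0.52, 0.66, 1.00 and 0.62) and Slc35a4 of 0.58 (0.0709). The ADP/ATP carrier Slc25a5 had 0.24 (0.0818), the nucleotide sugar carrier Slc35b4 0.73 (0.0940), and the lipocalin receptor Slc22a17, at the level in only 26 cells, -0.51 (0.101). The other nucleoside carriers Slc28a2 and Slc29a2 had slopes of either sign among the mice, from -0.82 to 1.3 and from -1.25 to 0.58.

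Without the detected-gene covariate, 65 members rose with the cell-cycle level and 5 fell, where 48.9% of all genes tested rose and 2.87% fell. The median slope was then 0.35 over members and 0.38 over all genes. By class, 17 of 35 mitochondrial, 10 of 18 amino acid, 9 of 19 metal and 2 of 10 sugar carriers rose. With the covariate, the median slope was 0.14 for amino acid carriers (13 of 18 positive), 0.06 for mitochondrial carriers (22 of 35) and -0.27 for organic solute and lipid carriers (3 of 13). Of the 23 listed carriers 1 rose, Slc29a1, and 14 rose without the covariate. With the covariate, Slc16a1 had a slope of 0.73, Slc7a5 of 0.42, Slc38a2 of 0.41, Slc11a2 of 0.40, Slc3a2 of 0.38, Slc2a1 of 0.31, Slc2a3 of 0.24, Slc1a4 of 0.19, Slc25a3 of 0.16 and Slc16a3 of 0.11, while Slc25a4, Slc38a1, Slc25a37, Slc39a10 and Slc44a2 lay between -0.02 and 0.03; none of these passed (0), with adjusted p from 0.127 to 1.00.

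The S-phase genes (39) and the G2M-phase genes (47) were also read separately. Using the S-phase list as the level, 9 members rose and 1 fell, where 7.35% of all genes tested rose and 1.5% fell. Using the G2M-phase list, 0 rose in limma (7 at unadjusted p under 0.05) and 1, Slc12a9, fell (-0.60 per SD, adjusted p = 0.0406), where 3.1% of all genes tested rose and 0.358% fell. On the S-phase level the slope of Slc12a9 was -0.52 (0.0628), and the difference of its slopes, 0.07, did not pass (0.879). These slopes, and the test of their difference, were treated as results after the data had been seen.

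Of the 9 members that rose with the S-phase level, the nucleoside carrier Slc29a1 had the highest mean slope. Its slopes were 1.86, 1.63, 1.48 and 0.30 in 1A, 1B, 2A and 2B (mean 1.32 ± 0.24 per SD, limma adjusted p = 0.00210). Slc7a1, a carrier of arginine and lysine, had 1.27, 0.84, 1.47 and 0.75 (1.08 ± 0.22, adjusted p = 0.00476). Slc1a5, which carries glutamine, had 0.86, 0.68, 0.77 and 1.09 (0.85 ± 0.17, adjusted p = 0.00543).

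Slc25a5, which exchanges ADP and ATP across the inner mitochondrial membrane, was above 3.5 in all 261 cells. Its S-phase slopes of 0.56, 0.30, 0.46 and 0.54 (0.46 ± 0.08, adjusted p = 0.00187) were small and close among mice. Its sequence is close to that of other ADP/ATP carriers, so reads could be split among them. Slc43a3 had a mean slope of 1.04 (adjusted p = 0.00956), the lactate carrier Slc16a1 of 1.06 (0.0161), the mitochondrial ornithine carrier Slc25a15 of 0.92 (0.0159), Slc43a1 of 0.72 (0.0420) and Slc35a4 of 0.64 (0.0308), each positive in 4 of 4 mice. Slc29a3 fell by 1.12 per SD (adjusted p = 0.00384), with slopes of -1.51, -0.87, -0.78 and -1.34.

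With each mouse left out in turn, Slc29a1, Slc7a1, Slc1a5 and Slc25a5 still passed for the S-phase level. Over all 12 alternatives Slc25a5 was called in 11, and its highest limma adjusted p was 0.122. Slc43a3 did not pass without 1B (adjusted p = 0.0851). Slc16a1 was lost without 1B (0.117) or 2B (0.130), and Slc25a15 without 1A (0.0785) or 2B (0.0858). Slc43a1 was lost without 1A (0.143), 1B (0.152) or 2B (0.160), and Slc35a4 without 1A (0.0911), 1B (0.108) or 2A (0.154). Without the cells with other markers 2 of the 9 were called, Slc29a1 and Slc25a5, where 1.43% of all genes tested rose and 0.0774% fell, while Slc7a1 had a slope of 0.67 (adjusted p = 0.123) and Slc1a5 of 0.33 (0.484). With sets rather than mice as replicates, Slc43a1 (0.0571), Slc25a15 (0.0548) and Slc29a3 (0.0549) did not pass.

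The difference between the S-phase and G2M-phase slopes was called for 7 members, all with the larger slope on the S-phase level, and for 0 in the other direction in limma (7 at unadjusted p under 0.05). Over all genes tested 2.04% were called in the first direction and 1.44% in the second. The difference was 1.42 ± 0.28 for Slc7a1 (adjusted p = 0.0165), 1.18 ± 0.27 for the folate carrier Slc19a1 (0.0340), 1.15 ± 0.25 for Slc29a1 (0.0252) and 1.13 ± 0.18 for Slc1a5 (0.00400). For Slc43a1 it was 1.00 ± 0.25 (0.0482), for the mitochondrial citrate carrier Slc25a1 0.87 ± 0.21 (0.0463) and for Slc25a5 0.50 ± 0.09 (0.00699), each positive in 4 of 4 mice. It did not pass for Slc43a3 (0.50, 0.355), Slc35a4 (0.37, 0.344), Slc16a1 (0.88, 0.0824), Slc25a15 (1.05, 0.101) or Slc29a3 (-0.62, 0.199), which passed on the S-phase level. The G2M-phase slopes of the 7 were -0.34 for Slc7a1, -0.47 for Slc19a1, 0.16 for Slc29a1, -0.28 for Slc1a5, -0.28 for Slc43a1, -0.24 for Slc25a1 and -0.03 for Slc25a5.

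Of these 7 differences, that of Slc25a5 passed with each mouse left out. Over all 12 alternatives it was called in 11, and its highest limma adjusted p was 0.232. Slc29a1 was lost without 1B (adjusted p = 0.191), Slc1a5 without 1B (0.0565) and Slc7a1 without 2A (0.0770) or 2B (0.0837). Slc43a1, Slc25a1 and Slc19a1 were lost with any of the 4 mice left out (0.0590 to 0.240 over the 12 fits). Without the cells with other markers, 3 members were called: Slc25a5, Slc29a1 and Slc35b2, a carrier of the sulfate donor PAPS, where 0.871% of all genes tested were called in that direction and 1.02% in the other. With sets rather than mice as replicates, Slc25a1 did not pass (0.0669).

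**Figure D5:**
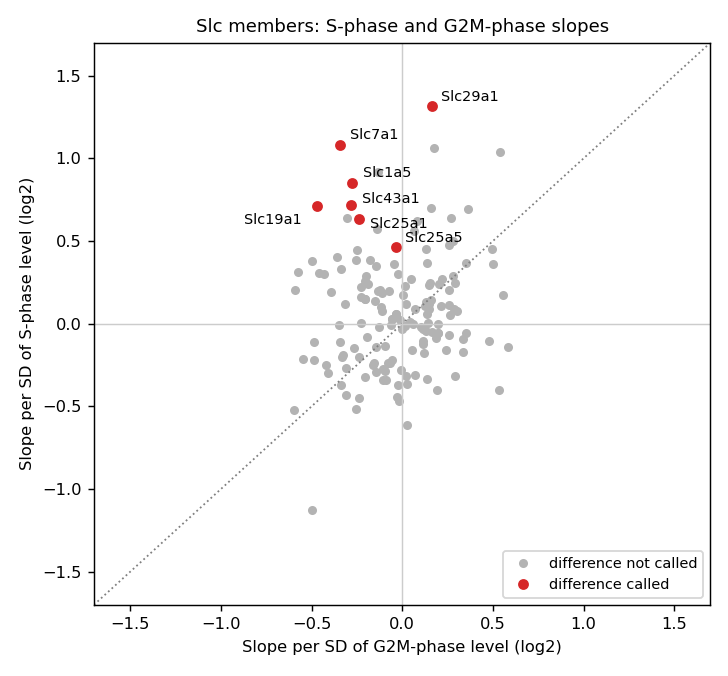
Slopes of each member on the S-phase level (y axis) and the G2M-phase level (x axis), in log2 per SD, as means of 4 mice; the dotted line marks equal slopes and red points the 7 members whose difference passed. Slc29a1 lies at 1.32 on the S-phase and 0.16 on the G2M-phase axis, and Slc25a5 at 0.46 and -0.03.

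Some carriers were at 3.5 or above in more of the cells with other markers than of the 182 cells without. The carriers named here were chosen after their values were seen, and cells of 1 kind share mice and plates, so the counts carry no test. Of 11 mast- and basophil-marked cells, all were at 3.5 or above for the magnesium carrier relative Slc41a3 and the glucose carrier Slc2a3, against 19.2% and 54.9% of the 182 cells without other markers; Slc2a3 was also at the level in 5 of 6 erythroid-marked cells. The amino acid carrier Slc7a8 was at the level in 8 of 11 (9.89%), the sugar carrier Slc2a6 in 8 (3.30%) and the vesicular monoamine carrier Slc18a2 in 7 (28%). Slc7a8 was also at the level in 6 of 11 macrophage-marked cells. Slc2a6 was so in 9 of 32 dendritic-marked and 5 of 25 NK/ILC-marked cells, and Slc18a2 in 3 of 6 erythroid-marked cells. Of 32 dendritic-marked cells, Slc15a4, an endolysosomal carrier of histidine and peptides, was at the level in 19 (35.7%; 5 of 11 macrophage-marked cells) and the mitochondrial sodium-calcium exchanger Slc8b1 in 12 (8.79%). Of 11 macrophage-marked cells, 7 had Slc31a2, a copper carrier relative (11%), and 7 had Slc8b1. Of 25 NK/ILC-marked cells, 17 had the proton exchanger Slc9a9 (46.2%), as had 9 of 11 macrophage-marked cells. The mitochondrial ATP-magnesium phosphate carrier Slc25a24 (21.4%) was at the level in 13 of the 25, and in 5 of 11 mast- and basophil-marked cells.

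Between the mice, the mean of a member ranged by a median of 0.56 log2, against 0.48 for all genes tested. The range was over 1 for 13 of 153 members (8.50%) and 6.10% of all genes. It was largest for the zinc carrier Slc39a6, with means of 5.33, 5.14, 5.86 and 4.41 in 1A, 1B, 2A and 2B, followed by Slc35b1 (4.54, 4.89, 5.23 and 4.09). Plates are shared in part, by 1A with 1B, by 1A with 2A and by 2A with 2B, and 2A lies in both pools. Mouse, plate and pool thus overlap in part, and what each adds to these ranges was not tested.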

How the data were processed

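Single cells were sorted into plates, and oligo-dT-primed cDNA was amplified and made into Nextera libraries, per the labels' protocols. The authors deposited a matrix of normalized log2 values for 13737 genes in 261 cells; per the submitters' processing notes Salmon and GRCm38 were used, and the labels name neither the normalization nor the filters. Values run from -4.13 to 15.99. In the matrix 4 sets of cells share exact values (at least 14.3% of values within a set, at most 0.0146% between sets); each gene's repeated lowest value in a set served as the value without reads, and a value differing from it by over 1e-06 as detected. Read depth is unknown, and depth is given as detected genes (5073 to 10337 per cell). No doublet caller was run on these sorted single cells.

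Gene IDs were matched to GENCODE vM21 (13578 matched). In each mouse a least-squares coefficient on the Kit class or on the cell-cycle level per SD was fitted with set and detected genes as covariates in Python 3.11.15 (numpy 2.4.6), and the 4 coefficients per gene were tested against 0 (two-sided) with limma 3.58.1 in R 4.3.3 with a trend. The 10335 genes at 3.5 or above in at least 26 cells were tested. The steps were tested on simulated data. Alternatives changed the covariates, the scale, the filter, the measure of Kit or cycle, the cells and the mice.

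Named members are up to 10 per direction past the threshold with 1 sign in 4 of 4 mice, the 5 with the smallest p where fewer passed, 27 listed carriers and those at the 26-cell limit. The members and lists were chosen with earlier results of these data known. The spans of Slc19a1 and Col18a1, both in the matrix, overlap on opposite strands, and whether counting used strand is not stated in the labels.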

Additional observations from a re-analysis of the deposited data

How the results depend on the processing

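The counts of members called moved with the covariates and with the cells kept. For Kit, 2 members were higher and 0 lower with all covariates; 35 and 1 without the detected-gene covariate, and 37 and 2 with no covariates. Raising values to 3.5, or limma without a trend, left 1 higher. Leaving out the cells with other markers gave 0 higher, as did doing so without the detected-gene covariate (added after seeing the data). In the first of these fits Kit was the only gene called. Kit as a continuous measure gave 2 lower. Leaving out 1 mouse gave 0 to 2 higher and 0 lower.

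For the cell-cycle level, 2 members rose and 2 fell. The counts were 65 and 5 without the detected-gene covariate and 65 and 6 with no covariates. Plate in place of set gave 4 rising, raising values to 3.5 gave 1, and testing all genes gave 1. Partial Spearman correlation gave 1 falling, Slc22a17, with neither Slc29a3 nor Slc12a9. A filter at 52 cells, which Slc12a9 does not reach, gave 1, Slc29a3. By limma without a trend the count of 2 rising held Slc20a1 (0.0468) and not Slc29a1. Leaving out the cells with other markers gave 0 and 0, and with no detected-gene covariate 21 and 0. The S-phase list gave 9 and 1, and the G2M-phase list 0 and 1. Leaving out 1 mouse gave 0 to 2 rising and 1 to 3 falling. The sign changed for Slc29a3 (0.35 without the cells with other markers and the detected-gene covariate) and for Slc25a5 (-0.0337 with the G2M-phase list), and the cause was not tested.

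For the S-phase slope (9 rising, 1 falling), the counts were 66 and 4 without the detected-gene covariate and 2 and 0 without the cells with other markers. Sets in place of mice gave 0 falling, and leaving out the first 8 wells of each set gave 4 falling. Leaving out 1 mouse gave 5 to 8 rising and 1 to 2 falling. For the difference of S-phase and G2M-phase slopes (7 members), the count was 12 without the detected-gene covariate. It was 3 with values raised to 3.5, limma without a trend, the cells with other markers left out or the first 8 wells left out, 4 with Kit as covariate, and 2 to 4 with 1 mouse left out. All other alternatives kept these counts within 1.5 times. Kit classes were compared within each mouse, so this comparison is paired by mouse throughout. With 4 mice of 61 to 69 cells, and read depth unknown, members seen in few cells have wide errors.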
